A study of Mus musculus with 11 samples.

Results

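Genes that mark the thick ascending limb of the loop of Henle and the distal convoluted tubule were followed in mouse kidney RNA, 9 in all: Umod, Egf, Slc12a1, Slc12a3, Kcnj1, Kcnj10, Calb1, Pvalb and Trpm6. They were chosen by symbol as 9 of the 25677 genes in the count table, and all 9 were counted and passed the filter on low counts in every comparison. The 11 libraries came from kidneys of female mice at 21 weeks of age, 1 library per mouse. Among them, 3 were normal controls, labelled C57B6 and named C57BL/6J in the study's methods (Ctr), 4 were untreated MRL/lpr mice (Lpr), and 4 were MRL/lpr mice given DNase I intraperitoneally every day from week 17 (DNase). The study asked how DNase I, an enzyme that degrades extracellular DNA, acts on lupus nephritis. The MRL/lpr strain carries a mutation of the Fas death receptor and develops a lupus-like nephritis. Both MRL/lpr groups carry this mutation and differ from the controls in the whole strain background, so in any comparison with Ctr the strain and the disease cannot be told apart. Totals ran from 33469858 to 38460873 counts per library, and the 9 genes together held 0.59% to 1.28% of them.

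The thick ascending limb reabsorbs salt without water. Its apical cotransporter Slc12a1 works together with the potassium channel Kcnj1, and its cells secrete uromodulin into the urine and hold the precursor of epidermal growth factor. The distal convoluted tubule that follows reabsorbs sodium chloride through Slc12a3, the target of thiazide diuretics, takes up magnesium through Trpm6 and uses the basolateral potassium channel Kcnj10. Its early part is marked by the calcium-binding protein parvalbumin (Pvalb), and calbindin (Calb1) marks the later part and the connecting tubule, where calcium is reabsorbed.

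The order of the 9 genes by mean FPKM, a level per length of gene and per library total, was the same in the 3 groups: Umod, Egf, Slc12a1, Slc12a3, Calb1, Kcnj1, Pvalb, Kcnj10 and Trpm6. In Ctr kidneys Umod had 1750.4 ± 20.1 FPKM (SD, n = 3) and Trpm6 had 2.57 ± 0.227 FPKM. Slc12a1 at 275 ± 29.5 FPKM, Slc12a3 at 219.5 ± 15.9 FPKM and Calb1 at 170.3 ± 46.7 FPKM followed Egf at 506 ± 54.3 FPKM. The Ctr values of Calb1 (124 to 217 FPKM) overlapped those of Slc12a3 (201 to 229 FPKM), and this pair of neighbours did not differ beyond its spread in any group. Egf and Slc12a1 also overlapped in Lpr and in DNase, as did Calb1 and Kcnj1, and Kcnj1 and Pvalb overlapped in Lpr. Kcnj1 (85.1 ± 3.53 FPKM), Pvalb (21.8 ± 2.06 FPKM) and Kcnj10 (14.3 ± 0.868 FPKM) stood apart from each other in Ctr. In DNase kidneys the order held with Pvalb at 58.1 ± 9.45 FPKM (n = 4) and Kcnj10 at 16.7 ± 2.52 FPKM.

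Against the Ctr kidneys, Pvalb was higher and Slc12a3 and Trpm6 were lower in MRL/lpr kidneys, whether or not DNase I had been given. All 3 passed the test in DNase against Ctr, and Pvalb alone passed it in Lpr against Ctr, with Slc12a3 and Trpm6 narrowly missing the threshold of an adjusted p of 0.05. Here rose and fell mean an adjusted p under 0.05 in edgeR's quasi-likelihood test with Benjamini-Hochberg adjustment over all genes, and levels are CPM, a read count relative to its library's total after TMM scaling. In Lpr against Ctr, 1 of the 9 rose and 0 fell, beside 7.27% of all 16074 genes that rose and 2.92% that fell. Against the same controls, 1 rose and 2 fell in DNase, beside 13.1% of 16100 genes that rose and 8.61% that fell. Between DNase and Lpr 0 of 9 passed, beside 0% of 15832 genes. The 2 comparisons with Ctr share the 3 Ctr libraries. The split of all calls depended on the scaling: with library totals alone 2767 genes rose and 991 fell in DNase against Ctr, beside 2107 and 1386 with TMM, and scaled to proximal tubule genes 1299 rose and 193 fell in Lpr against Ctr, beside 1169 and 470. Since RNA of the kidney as a whole was measured, fewer cells of a segment and less RNA per cell cannot be told apart.

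**Figure D1:**
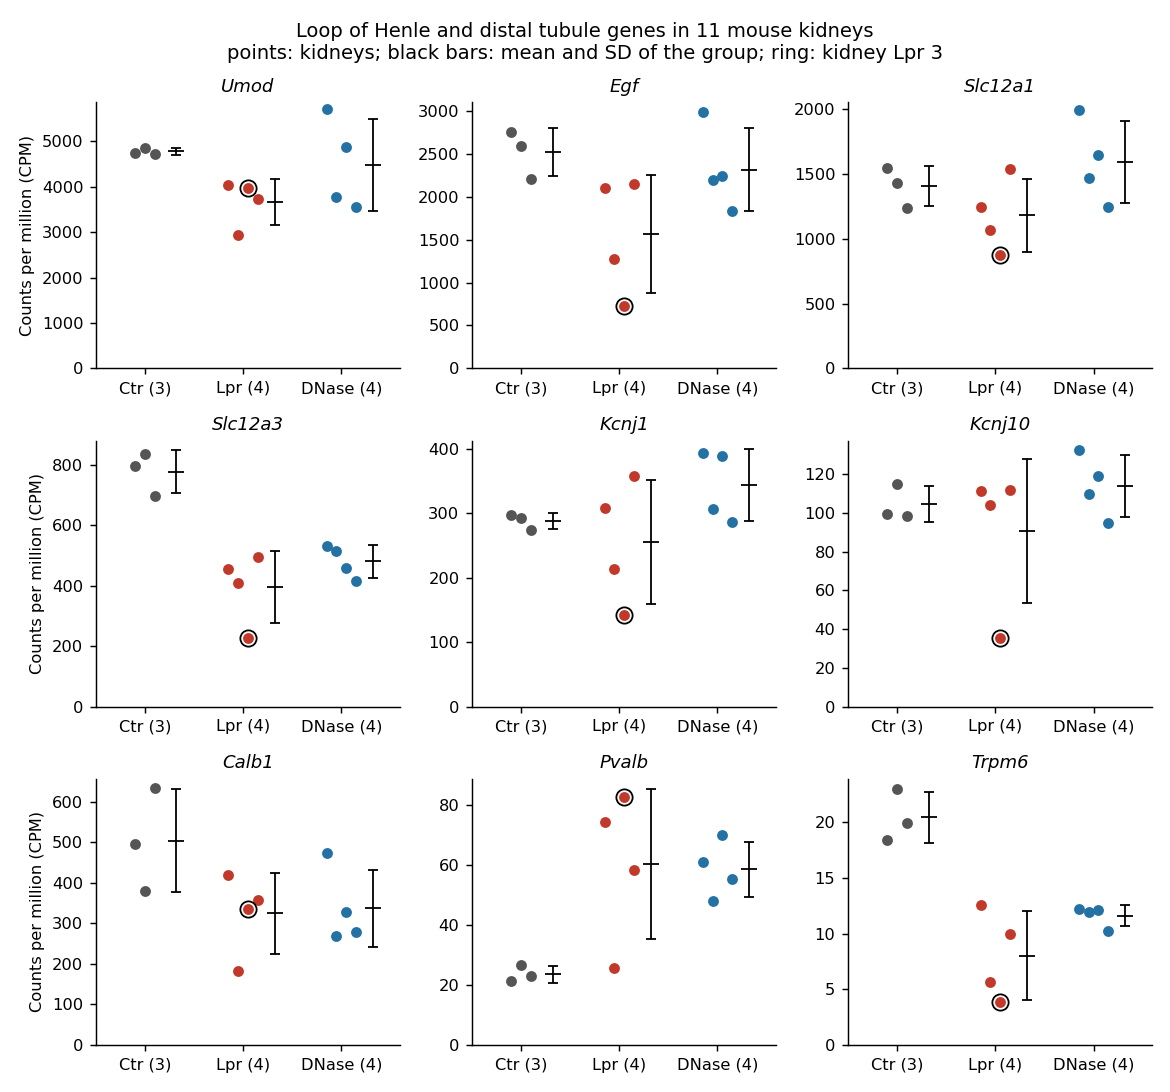
Level of each of the 9 genes in CPM (vertical axes, from 0) in each of 11 kidneys, by group; points are kidneys, bars give the mean and SD, and the ring marks kidney Lpr 3. Slc12a3 and Trpm6 are lower in all 8 MRL/lpr kidneys than in the 3 Ctr kidneys, and Pvalb is higher in 7 of the 8 than in every Ctr kidney.

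Kidney Lpr 3 stood apart. In it, long genes were read less than in the other kidneys: its log2 CPM, relative to the mean over all libraries, changed by -0.39 for each doubling of gene length over 16500 genes, against -0.04 to 0.08 in the other 10 libraries. Kcnj10 and Trpm6 are long (7047 and 7679 bases) and Pvalb is short (1043 bases), as computed from the deposited counts and FPKM values. Lpr 3 was 1.63 lower in log2 CPM than the mean of the other Lpr kidneys for Kcnj10, where the line over all genes gave -0.48, and 0.78 higher for Pvalb, where the line gave 0.74. For Egf (4803 bases) the difference was -1.31 and the line gave -0.23. Kcnj10, Egf, Slc12a3, Kcnj1, Trpm6 and Slc12a1 lay below the line, and Umod, Calb1 and Pvalb lay within 0.1 of it. When each library was corrected for its line of count against gene length, an alternative chosen after the data were seen, the log2 fold changes in Lpr against Ctr were -1.08 for Slc12a3 (edgeR adjusted p = 0.0207), -1.38 for Trpm6 (0.0187) and 1.03 for Pvalb (0.0644).

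**Figure D2:**
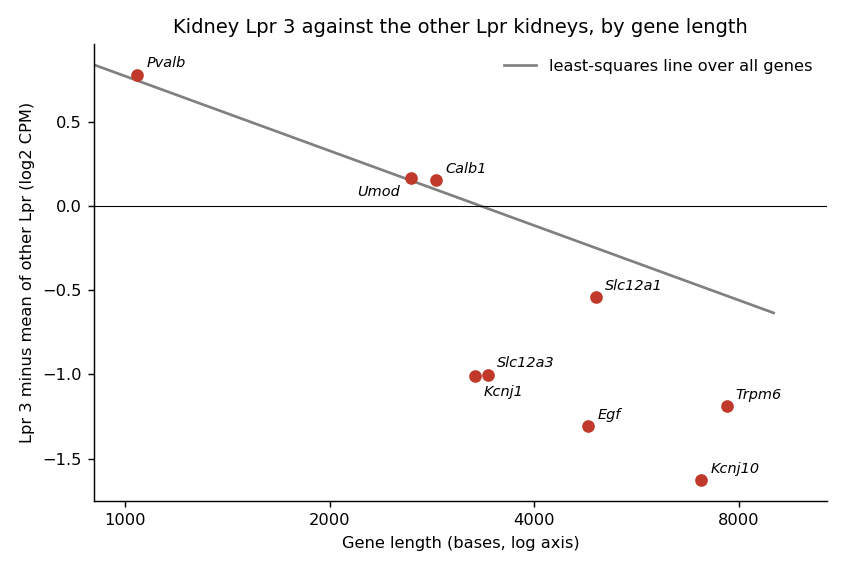
Log2 CPM of kidney Lpr 3 minus the mean of the other 3 Lpr kidneys (vertical axis) against gene length in bases (horizontal log axis) for the 9 genes, with the least-squares line over 16500 genes. Umod, Calb1 and Pvalb lie within 0.1 of the line, and the other 6 genes lie below it.

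Among the genes of the thick ascending limb, Umod (ENSMUSG00000030963; GRCm38 chromosome 7, 119462711 to 119479282, minus strand) encodes uromodulin, the main protein of normal urine. Exons of Umod and of Egf overlap annotated genes on the other strand (Gm44588 for Umod, 6330410L21Rik and Gm42697 for Egf), and use of strand in the counting is not given in the sources used here, so reads of such pairs cannot be told apart. Its levels in Ctr were 4749.7, 4866 and 4725 CPM, those in Lpr 1 to Lpr 4 were 4032, 2946, 3969.8 and 3728 CPM, and those in the DNase kidneys were 5723, 3765, 4887 and 3547 CPM. All 4 Lpr kidneys were below all Ctr kidneys, while the DNase kidneys spread on both sides of them. Such separation from Ctr, here and for the genes below, is a description only, since the share of all genes that separate was not computed. The log2 fold change was -0.38 ± 0.18 (SE) in Lpr against Ctr (edgeR adjusted p = 0.27) and -0.09 ± 0.17 in DNase against Ctr (edgeR adjusted p = 0.761). In DNase, the SD of Umod was 1015 CPM, against 75.7 CPM in Ctr.

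Egf (ENSMUSG00000028017; chromosome 3, 129677565 to 129755316, minus strand) encodes the membrane precursor of epidermal growth factor, a growth factor of tubular cells. Ctr kidneys had 2758, 2592 and 2211 CPM, Lpr kidneys 2106, 1278, 725 and 2143 CPM, and DNase kidneys 2987, 2195, 2238 and 1838 CPM. Every Lpr kidney was below every Ctr kidney, with Lpr 3 the lowest, and the DNase kidneys reached into the Ctr range. The log2 fold change of Lpr against Ctr was -0.69 ± 0.35 (edgeR adjusted p = 0.318), and it was -0.45 ± 0.21 without Lpr 3 (edgeR adjusted p = 0.2). In DNase against Ctr it was -0.12 ± 0.16 (edgeR adjusted p = 0.664).

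Slc12a1 (ENSMUSG00000027202; chromosome 2, 125152505 to 125230002, plus strand), the sodium-potassium-chloride cotransporter blocked by loop diuretics, had 1543, 1430.1 and 1239 CPM in Ctr, 1245, 1068, 872 and 1538 CPM in Lpr, and 1995, 1468, 1642 and 1248 CPM in DNase. The 3 groups overlapped. Kcnj1 (ENSMUSG00000041248; chromosome 9, 32372493 to 32399197, plus strand), the apical potassium channel that returns potassium to the lumen, had 298, 293 and 274 CPM in Ctr, 309, 214, 142 and 358 CPM in Lpr, and 394, 306, 389.8 and 286 CPM in DNase. Its Ctr kidneys lay within a narrow range, and the Lpr kidneys lay on both sides of it. With TMM scaling neither gene passed the test in any of the 3 comparisons, the smallest edgeR adjusted p being 0.477 for Slc12a1 and 0.189 for Kcnj1, both in DNase against Ctr. The log2 fold change of Kcnj1 in Lpr against Ctr was -0.17 ± 0.29, and 0.03 ± 0.18 without Lpr 3. Scaled to proximal tubule genes, Kcnj1 rose by 0.56 in DNase against Ctr (edgeR adjusted p = 0.049), where that scaling moved the median of all genes to 0.28.

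Among the genes of the distal convoluted tubule are the 3 that passed a test against Ctr. Slc12a3 (ENSMUSG00000031766; chromosome 8, 94329201 to 94366214, plus strand) is the thiazide-sensitive sodium chloride cotransporter, Pvalb (ENSMUSG00000005716; chromosome 15, 78191114 to 78206400, minus strand) is parvalbumin, and Trpm6 (ENSMUSG00000024727; chromosome 19, 18749983 to 18892511, plus strand) is the apical magnesium channel of this segment. Their promoters are shown because these 3 genes are the ones that passed a test. Each line is the RefSeq window of 250 bases before the annotated start (GRCm38.p6), 5′ to 3′ on the strand of the gene, at chr8:94328958-94329207 on the plus strand, chr15:78206401-78206650 on the minus strand and chr19:18749480-18749729 on the plus strand. Capitals mark a match to one of 4 motifs searched on both strands. These were the TATA box, searched as TATAAA, and a half-site of the kidney transcription factor HNF1, searched as GTTAAT. The others were the estrogen-related receptor site, searched as AAGGTCA, and a half-site of the steroid receptors, searched as AGAACA.
Slc12a3: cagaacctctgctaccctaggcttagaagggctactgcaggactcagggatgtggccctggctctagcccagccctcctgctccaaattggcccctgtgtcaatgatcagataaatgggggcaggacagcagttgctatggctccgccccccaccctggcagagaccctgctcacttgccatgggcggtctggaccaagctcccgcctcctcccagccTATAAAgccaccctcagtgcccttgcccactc
Pvalb: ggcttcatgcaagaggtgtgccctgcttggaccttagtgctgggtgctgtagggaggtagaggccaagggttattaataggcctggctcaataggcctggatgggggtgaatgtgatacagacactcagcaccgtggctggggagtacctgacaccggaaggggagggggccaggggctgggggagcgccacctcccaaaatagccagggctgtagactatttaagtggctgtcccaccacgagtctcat
Trpm6: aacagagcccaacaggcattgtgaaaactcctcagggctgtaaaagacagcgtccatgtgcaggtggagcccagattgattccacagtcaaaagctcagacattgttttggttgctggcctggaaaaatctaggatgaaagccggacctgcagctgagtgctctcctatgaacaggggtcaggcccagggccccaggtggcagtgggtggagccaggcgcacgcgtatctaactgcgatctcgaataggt
The window of Slc12a3 holds 1 TATA box, which begins 32 bases before the RefSeq start, and the windows of Pvalb and Trpm6 hold none of the 4 motifs. For Pvalb and for Egf 2 windows were listed, and only the one nearest the RefSeq gene start is described here. The RefSeq start lies a few bases inside the GENCODE gene for Slc12a3 and before it for Trpm6. Of 32851 promoter windows of this length, 12.4% hold the TATA box, 6.43% the HNF1 half-site, 4.08% the estrogen-related receptor site and 16.1% the steroid receptor half-site. Windows were listed for 8 of the 9 genes, Calb1 being the exception. Among the other 5, Umod holds 1 HNF1 half-site, Kcnj1 holds 2 steroid receptor half-sites and Kcnj10 holds 1, while Egf and Slc12a1 hold none of the 4. The window of Kcnj1, chr9:32393735-32393984, lies far inside the GENCODE gene, before an internal start.

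Slc12a3 had 797, 838 and 699 CPM in Ctr, 455, 408, 226 and 496 CPM in Lpr 1 to Lpr 4, and 532, 516, 457 and 417 CPM in DNase. The lowest Ctr kidney was above all 8 MRL/lpr kidneys, and the DNase kidneys lay within the upper part of the Lpr range or just above it. Slc12a3 fell in DNase against Ctr by 0.69 on the log2 scale (SE 0.11, edgeR adjusted p = 0.00174). In Lpr against Ctr, the log2 fold change was -0.97 ± 0.26 and just missed the threshold in edgeR (adjusted p = 0.0523), while DESeq2 gave an adjusted p of 0.00939. Without Lpr 3 it was -0.77 ± 0.12 (edgeR adjusted p = 0.00418). Scaled to proximal tubule genes, the log2 fold change of DNase against Ctr was -0.41 and no longer passed (edgeR adjusted p = 0.0688), and with all 11 libraries in 1 fit it was -0.69 and did not pass (edgeR adjusted p = 0.073).

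Trpm6, the least abundant of the 9 per length, had 18.4, 23.0 and 20.0 CPM in Ctr, 12.6, 5.69, 3.88 and 9.99 CPM in Lpr, and 12.2, 11.9, 12.1 and 10.2 CPM in DNase. No MRL/lpr kidney reached the Ctr range, and the DNase kidneys were closer to each other than the Lpr kidneys were. It fell by 0.81 on the log2 scale in DNase against Ctr (SE 0.11, edgeR adjusted p = 0.000839), a call lost with all 11 libraries in 1 fit (edgeR adjusted p = 0.138). In Lpr against Ctr, the log2 fold change was -1.34 ± 0.37 (edgeR adjusted p = 0.0543, DESeq2 adjusted p = 0.00674), and it was -1.11 ± 0.27 without Lpr 3 (edgeR adjusted p = 0.0291).

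Pvalb was the one member that rose. Ctr kidneys had 21.2, 26.7 and 22.9 CPM, Lpr kidneys 74.4, 25.8, 82.8 and 58.4 CPM, and DNase kidneys 61.0, 48.1, 69.9 and 55.5 CPM. Kidney Lpr 2 lay within the Ctr range, and the other 7 MRL/lpr kidneys were above it. Pvalb rose in DNase against Ctr by 1.32 on the log2 scale (SE 0.14, edgeR adjusted p = 0.000154), with no overlap between the groups. The rise in Lpr against Ctr was 1.35 (SE 0.36, edgeR adjusted p = 0.048). That call did not hold without Lpr 3 (log2 fold change 1.17 ± 0.34, edgeR adjusted p = 0.0559), and it was also lost when Lpr 1, Lpr 4 or any 1 of the 3 Ctr libraries was left out. Parvalbumin is also a protein of fast skeletal muscle. The summed level of 11 other fast muscle genes ran from 28.5 to 60.9 CPM in Ctr, from 20.3 to 28.2 CPM in Lpr and from 6.90 to 17.1 CPM in DNase. The sums were highest in Ctr, where Pvalb was lowest, and lower in DNase than in Lpr, and the part of muscle RNA in the level of Pvalb was not tested.

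Calb1 (ENSMUSG00000028222; chromosome 4, 15881264 to 15908064, plus strand), the calcium buffer of the late distal tubule, had 496, 380.4 and 634 CPM in Ctr, 420.3, 183, 336 and 357 CPM in Lpr, and 474, 268, 328 and 278 CPM in DNase. In each MRL/lpr group 1 kidney lay within the Ctr range and the other 3 lay below it. The log2 fold change was -0.63 ± 0.29 in Lpr against Ctr (edgeR adjusted p = 0.256) and -0.58 ± 0.22 in DNase against Ctr (edgeR adjusted p = 0.103, DESeq2 adjusted p = 0.0308). Kcnj10 (ENSMUSG00000044708; chromosome 1, 172341210 to 172374085, plus strand), the basolateral potassium channel, had 99.6, 115 and 98.5 CPM in Ctr, 111, 104, 35.3 and 112 CPM in Lpr, and 132, 109.9, 119 and 94.6 CPM in DNase. Apart from Lpr 3, the 10 kidneys lay between 94.6 and 132 CPM. Its log2 fold change in Lpr against Ctr was -0.20 ± 0.36 with Lpr 3 (edgeR adjusted p = 0.802) and 0.07 ± 0.09 without it (edgeR adjusted p = 0.649).

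**Figure D3:**
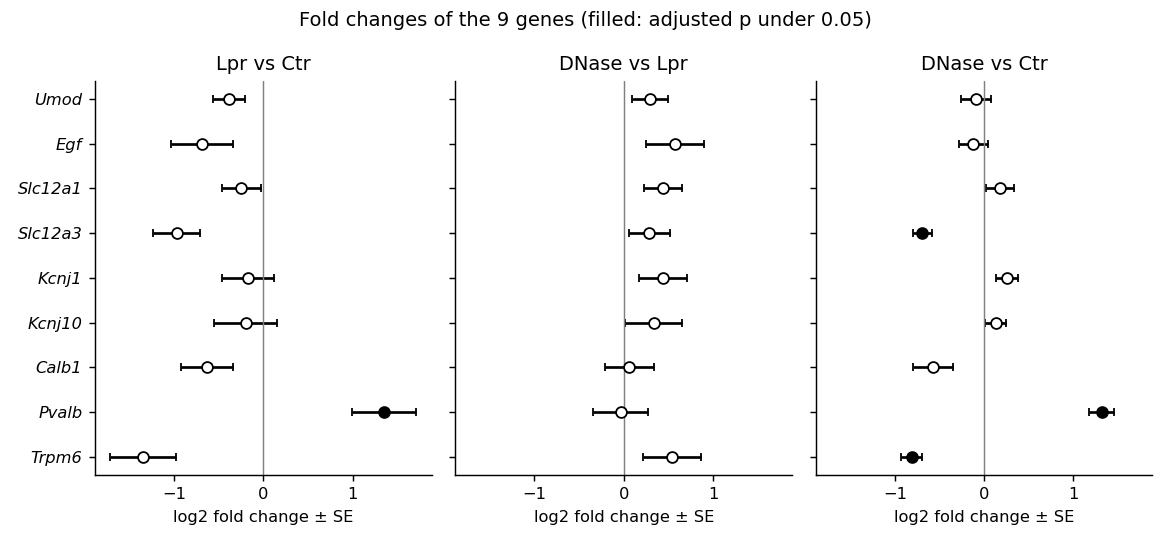
Log2 fold change with its SE (horizontal axis) of the 9 genes in the 3 comparisons, from edgeR; filled points have an adjusted p under 0.05. Pvalb is filled in both comparisons with Ctr, Slc12a3 and Trpm6 are filled in DNase vs Ctr, and no point is filled in DNase vs Lpr.

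Set together, 8 of 9 log2 fold changes were negative in Lpr against Ctr, with a median of -0.38 beside 0.03 over all genes. Without Lpr 3, 6 of 9 were negative and the median was -0.42, with 2 that fell and 0 that rose, beside 6.79% of all genes that fell and 11.0% that rose. In DNase against Ctr 5 of 9 were negative and the median was -0.09, beside 0.002 over all genes. Lists of other kidney cells also had negative medians in Lpr against Ctr. These were -0.45 for collecting duct, -0.34 for proximal tubule, -0.44 for podocyte, -0.33 for endothelial and -0.30 for inner medulla genes. The medians of tubular injury and leukocyte genes were 2.53 and 3.09. No member passed the study's fold rule, an adjusted p under 0.05 with an absolute log2 fold change above 2, in the edgeR fits. There 5.78% of genes passed it in Lpr against Ctr, 0% in DNase against Lpr and 6.01% in DNase against Ctr. The study's methods name DESeq2 instead. With DESeq2 run here, 0 members passed the rule, beside 1175, 5 and 1195 genes in the same order.

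The question of what DNase I changed within MRL/lpr kidneys is addressed by DNase against Lpr, in which edgeR called no gene. The study reported genes called in both directions for this comparison. The smallest adjusted p over all genes in edgeR was 0.82, and 886 of 15832 genes, 0 of them members, had an unadjusted p under 0.05. In DESeq2 10 genes rose and 7 fell, none of them a member. For all 9 members the ranges of the groups overlapped, a description only, since the share of all genes with such overlap was not computed. Of the 9 log2 fold changes 8 were positive, with a median of 0.34 beside -0.02 over all genes. The largest was that of Egf, 0.58 with a 95% interval from -0.22 to 1.37 (edgeR adjusted p = 0.854). For Trpm6 it was 0.54 (-0.26 to 1.34), for Slc12a3 0.29 (-0.28 to 0.85) and for Pvalb -0.03 (-0.80 to 0.73). Each of these intervals includes no change. Without Lpr 3, 0 of 9 members passed, and the log2 fold changes were smaller for Egf (0.33), Trpm6 (0.30), Slc12a3 (0.0847), Kcnj1 (0.23) and Kcnj10 (0.0625), while that of Pvalb was 0.15.

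Ratios within a kidney do not depend on the scaling between libraries, but the gene length trend of Lpr 3 still enters them. In log2 CPM, the line over all genes for Lpr 3 gave 0.74 for Pvalb and -0.02 for Slc12a3. It gave 0.15 for Umod and -0.25 for Slc12a1. The ratio of Slc12a3 to Slc12a1 in FPKM, the distal cotransporter over that of the thick ascending limb, was 0.745, 0.844 and 0.813 in Ctr, 0.528, 0.551, 0.373 and 0.465 in Lpr, and 0.384, 0.507, 0.402 and 0.481 in DNase. Every MRL/lpr kidney was below every Ctr kidney, with means of 0.801 ± 0.051 (SD, n = 3) in Ctr, 0.479 ± 0.0795 (n = 4) in Lpr and 0.444 ± 0.0599 (n = 4) in DNase. The ratio of Pvalb to Slc12a3, both of the distal convoluted tubule, ran from 0.0872 to 0.107 in Ctr, from 0.207 to 1.2 in Lpr, with Lpr 3 the highest, and from 0.305 to 0.501 in DNase. By contrast, the ratio of Trpm6 to Slc12a3 overlapped between the groups, at 0.0103 to 0.0127 in Ctr, 0.0062 to 0.0123 in Lpr and 0.0102 to 0.0118 in DNase. The ratio of Umod to Slc12a1 was 5.75 to 7.12 in Ctr and 4.53 to 8.5 in Lpr, with Lpr 3 the highest. In DNase it was 4.79 to 5.56, and every DNase kidney lay below every Ctr kidney. The ratio of Kcnj10 to Kcnj1 overlapped between the groups, at 0.155 to 0.182 in Ctr, 0.115 to 0.226 in Lpr and 0.142 to 0.167 in DNase. Separation of groups in these ratios is a description only, since the share of gene pairs that separate likewise was not computed.

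**Figure D4:**
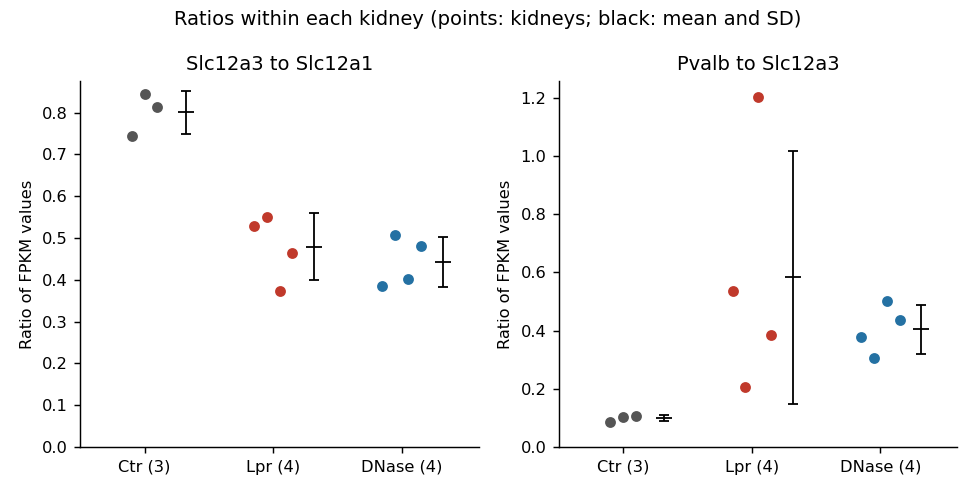
Ratio of FPKM values within each kidney (vertical axes, from 0) of Slc12a3 to Slc12a1 and of Pvalb to Slc12a3, by group; points are kidneys and bars give the mean and SD. In Slc12a3 to Slc12a1, all 8 MRL/lpr kidneys lie at or below 0.551 and the 3 Ctr kidneys at or above 0.745, and in Pvalb to Slc12a3 all 8 lie above the Ctr kidneys.

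Other genes of these segments, 70 in 7 lists, were read beside the members. Against Ctr, 4 rose and 0 fell in Lpr, beside 7.27% and 2.92% of all genes, and 6 rose and 13 fell in DNase, beside 13.1% and 8.61%. Their median log2 fold change was -0.21 in Lpr and -0.11 in DNase against Ctr, beside 0.03 and 0.002 over all genes. An unadjusted p under 0.05 in edgeR was found for 21 in Lpr and 26 in DNase, beside 21.4% and 33.5% of all genes. Between DNase and Lpr 0 passed in edgeR or in DESeq2. In edgeR 3 of the 70 had an unadjusted p under 0.05, beside 5.60% of all genes. These were Hspa5 with a log2 fold change of -0.68 ± 0.19, Sgk1 with -1.09 ± 0.33 and Pou3f3 with 0.38 ± 0.13 (edgeR adjusted p = 0.82 for each). DESeq2 called 6 higher and 4 lower in Lpr against Ctr. Without Lpr 3, 6 rose and 5 fell in Lpr against Ctr, of the 69 then tested.

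Of the 16 genes for potassium, magnesium and calcium transport in the distal convoluted tubule, 7 fell in DNase against Ctr and 0 rose, beside 8.61% and 13.1% of all genes. S100g, which encodes the intestinal-type calbindin that carries calcium through the cell, fell by 1.32 on the log2 scale (SE 0.32, edgeR adjusted p = 0.0161), from 713 ± 44.9 CPM in Ctr to 286 ± 142 CPM in DNase. Trpv5, the apical calcium channel, fell by 0.77 (SE 0.15, edgeR adjusted p = 0.00555), from 29.0 ± 2.79 to 16.99 ± 3.39 CPM. The magnesium transport gene Cnnm4 fell by 0.70, and Kl, the co-receptor klotho, fell by 0.45. Kl and Pth1r, the parathyroid hormone receptor, are also expressed in the proximal tubule. In Lpr against Ctr, 0 of the 16 passed, S100g being nearest with -1.15 ± 0.32 (edgeR adjusted p = 0.0596). The median log2 fold change of the 16 was still -0.40 in Lpr against Ctr, beside -0.23 in DNase against Ctr. Lpr kidneys had 322 ± 142 CPM of S100g and 17.6 ± 7.37 CPM of Trpv5. Cnnm4 had 17.7 ± 6.37 CPM in Lpr and 18.4 ± 0.84 CPM in DNase, and Kl had 487 ± 180 and 613 ± 64.4 CPM. Without Lpr 3, S100g and Cnnm4 fell and Atp2b1, a plasma membrane calcium pump, rose.

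The WNK-SPAK pathway controls Slc12a3 by phosphorylation. Of its 12 listed genes 3 fell and 0 rose in DNase against Ctr, beside the same shares of all genes. Klhl3, an adaptor of the ubiquitin ligase that degrades WNK kinases, fell by 0.75 (SE 0.08, edgeR adjusted p = 0.00021), with 77.1, 81.9 and 68.1 CPM in Ctr, 44.5, 31.0, 12.4 and 40.0 CPM in Lpr, and 46.5, 45.1, 46.7 and 41.5 CPM in DNase. As for Slc12a3, all MRL/lpr kidneys were below all Ctr kidneys, with Lpr 3 the lowest. Its log2 fold change in Lpr against Ctr was -1.24 ± 0.37 (edgeR adjusted p = 0.0745), and without Lpr 3 it fell by 0.97 (edgeR adjusted p = 0.0041). Sgk1, an aldosterone-induced kinase that many cell types express, fell by 0.74 in DNase against Ctr (SE 0.23, edgeR adjusted p = 0.0483), with Ctr values from 98.0 to 202 CPM that overlapped those of DNase, 74.0 to 113 CPM.

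In the thick ascending limb, the 11 salt transport genes gave 0 calls in edgeR in any comparison. The gene nearest to a call in Lpr against Ctr was Bsnd, which encodes barttin, with a log2 fold change of -0.71 ± 0.22 (edgeR adjusted p = 0.0864), a gene that DESeq2 called. Of the 6 genes for claudins and calcium sensing, Cldn14 rose in both comparisons with Ctr in edgeR, but without Lpr 3 it did not pass the filter on low counts in Lpr against Ctr, where Cldn16 then rose by 0.56 (edgeR adjusted p = 0.0167) and Casr, the calcium-sensing receptor, fell by 0.48 (edgeR adjusted p = 0.0401). Claudin 14 blocks the paracellular path for calcium. It had 2, 3 and 3 counts in the Ctr libraries, 31, 10, 15 and 46 in Lpr and 7, 12, 13 and 23 in DNase, so that its level was near the limit of detection in Ctr and no fold is given. Cldn16, which forms the paracellular path for magnesium and calcium, rose by 0.74 in DNase against Ctr (SE 0.15, edgeR adjusted p = 0.00635), from 13.9 ± 1.5 to 23.2 ± 4.09 CPM.

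A further 8 genes act on uromodulin and EGF, by folding, cutting or reception. Hspa5, the chaperone of the endoplasmic reticulum that every cell uses, rose by 1.16 in Lpr against Ctr (SE 0.22, edgeR adjusted p = 0.0108) and by 0.47 in DNase against Ctr (SE 0.09, edgeR adjusted p = 0.00416). Adam17, a sheddase of membrane proteins, rose by 0.77 and 0.69 in the same comparisons. Mep1b, a protease of the proximal tubule brush border, fell by 0.72 in DNase against Ctr (edgeR adjusted p = 0.00197), and by 0.80 in Lpr against Ctr without Lpr 3 (edgeR adjusted p = 0.0279). Among 13 transcription factors of the loop and distal tubule, Irx1 rose by 0.73 and Emx1 fell by 0.42 in DNase against Ctr (edgeR adjusted p = 0.00545 and 0.0449), and 0 passed in Lpr against Ctr in edgeR, where DESeq2 called Irx1 and where Irx1 rose by 0.63 without Lpr 3 (edgeR adjusted p = 0.017). Of 4 genes of the macula densa, the sensor at the end of the thick ascending limb, Pappa2 rose by 3.68 in Lpr and by 4.11 in DNase against Ctr (edgeR adjusted p = 0.0147 and 0.000281), from 0.591 ± 0.142 CPM in Ctr to 7.60 ± 4.98 CPM in Lpr and 10.3 ± 4.69 CPM in DNase. Ptges fell by 0.81 in DNase against Ctr (edgeR adjusted p = 0.0322).

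Markers of other cells moved with the same groups. The 15 leukocyte genes summed to 91.0 to 122 CPM in Ctr, 359 to 674 CPM in Lpr and 319 to 489 CPM in DNase, and 12 of the 15 rose in Lpr and all 15 in DNase against Ctr, Cd4 and Cd8a with the largest changes. The sum of 20 proximal tubule genes was lower in MRL/lpr kidneys, at 26334 to 28346 CPM in Ctr, 16058 to 25112 CPM in Lpr and 19317 to 24245 CPM in DNase. Of 16 collecting duct genes, 15 were lower in Lpr against Ctr, with 2 that fell (Slc4a9 by 1.07 and Slc26a4 by 0.87), and 16 were lower in DNase against Ctr, with 4 that fell. Their sums overlapped between the groups (1294 to 1833, 1014 to 1510.5 and 927 to 1754 CPM), as did 6 inner medulla genes (749 to 1709, 615 to 1137 and 784 to 1171 CPM). The 7 tubular injury genes, Havcr1 and Lcn2 among them, ran from 1898 to 2295 CPM in Ctr, from 2476 to 13294 CPM in Lpr and from 2229.7 to 3034 CPM in DNase. Sums of 7 podocyte genes (794 to 898, 404 to 769 and 763 to 838 CPM), 7 endothelial genes (471 to 545, 310.3 to 455 and 364 to 505 CPM) and 6 adipocyte genes (66.1 to 1079, 34.6 to 1393 and 39.3 to 277 CPM) are given in the order Ctr, Lpr and DNase. The part of these markers in the levels of the 9 genes was not tested.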

How the data were processed

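Kidney RNA of 11 mice was read as 100 bp paired-end libraries, and the submitters' processing notes name fastp, HTSeq, DESeq2, R 3.2.0 and the build mm10. The study's methods name HTSeq, a read counter, for matching reads to genes, and a separate aligner, the annotation and the use of strand are not given in the sources used here. The gene counts were deposited by the authors as whole numbers without normalization. FPKM values, also deposited by the authors, equal those counts per library total and per gene length, and the length implied by each library was the same. The number of unused columns was 0, and no batch is given in the labels.

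Groups were compared in pairs with edgeR 4.0.16 in R 4.3.3 (filterByExpr, TMM, quasi-likelihood test, libraries of the 2 groups alone, Benjamini-Hochberg adjustment over all genes tested). CPM values use TMM-scaled totals, and log2 CPM a prior count of 2. Intervals of 95% come from the SE and the residual degrees of freedom of the samples. DESeq2 1.42.0 and limma 3.58.1 served as alternatives, with FPKM on a log2(value + 1) or log2(value + 0.1) scale for genes with a mean of at least 0.5 FPKM. The fits were tested on simulated data. Gene positions are from GENCODE for GRCm38, which is mm10, and promoters from RefSeq for GRCm38.p6. Figures were drawn with matplotlib.

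The 9 genes, the gene lists and the tests were chosen with earlier results of these data known. Named were all 9 members, then of each of the 7 pathway lists up to 5 genes past the test per direction with the largest change, or the gene of smallest p where none passed, of the other lists up to 2 per direction, and for each member the 3 genes with the highest correlation. Not every gene that this rule allows is printed, and 1 of them is not reported here. The p-values weigh the difference between groups against the spread between libraries within a group. With 1 library per mouse, differences between mice and between libraries cannot be told apart in that spread. Counting precision is lower for genes with few counts, such as Cldn14 in Ctr.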

Additional observations from a re-analysis of the deposited data

Results flagged for a closer look

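In groups of 4 kidneys, the lowest or highest sample was compared with the others by Dixon's test, for the 9 genes in Lpr and in DNase. Of 18 such groups, 2 had a kidney far from the other 3, and chance gives about 1 in 20. Kcnj10 in Lpr 3 was at 35.26 CPM, while the other Lpr kidneys lay between 104.2 and 111.9 CPM. That kidney also has the trend of lower counts in longer genes described above, for which the line over all genes gave -0.48 at the length of Kcnj10, against a measured difference of -1.63 in log2 CPM. Trpm6 in DNase 4 was at 10.21 CPM, while the other DNase kidneys lay within the narrow range from 11.9 to 12.19 CPM.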

How the results depend on the processing

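Members past the test numbered 1 in Lpr against Ctr. The number was 3 with DESeq2, with no filter and with all 11 libraries in 1 fit, 2 when scaled to proximal tubule genes and with the gene length correction (chosen after seeing the data), 0 with limma on log2(FPKM + 0.1), and 0 to 2 over the fits that left out 1 library. It stood at 0 without Lpr 4 or any 1 Ctr library, and at 2 without Lpr 3. In DNase against Ctr the number was 3, and 1 with all 11 libraries in 1 fit, where Pvalb alone passed. With the replicate number as a block, 2 members passed in Lpr against Ctr, Slc12a3 and Trpm6, with Pvalb lost (log2 fold change 1.23). Deviations of same-numbered kidneys had correlations of -0.21 to 0.08 in Lpr against Ctr and -0.11 to 0.15 in DNase against Lpr. In DNase against Ctr they were -0.28 to -0.06. Differently numbered kidneys gave -0.29 to 0.37, -0.29 to 0.20 and -0.09 to 0.28 in the same order. Whether same-numbered kidneys share a batch or handling cannot be told from so few pairs. With RLE normalization, limma on log2(FPKM + 1) and without Lpr 1 the number in Lpr against Ctr was again 1, but Pvalb was lost (adjusted p of 0.0501, 0.0683 and 0.11) and Slc12a3 in the first and Trpm6 in the other 2 fell. For the other counts of members, past the test or the fold rule, the number was within 1.5 times the main one.

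Directions turned for members that passed no test there. Scaled to proximal tubule genes, the log2 fold change in Lpr against Ctr was 0.0474 for Umod, 0.11 for Slc12a1, 0.14 for Kcnj1 and 0.0949 for Kcnj10, all below the median of all genes under that scaling, 0.45. In DNase against Ctr it was 0.21 for Umod and 0.16 for Egf, where that median was 0.28, and in DNase against Lpr -0.0583 for Calb1. With library totals Umod was at 0.0072 in DNase against Ctr and Pvalb at 0.0343 in DNase against Lpr. Pvalb in DNase against Lpr was also at 0.0751 with the replicate block, 0.13 with limma on either FPKM scale (0.1272 and 0.1317) and 0.1257 with the gene length correction. Leaving out 1 library gave -0.37 to 0.0307 for Kcnj1 and -0.31 to 0.0687 for Kcnj10 in Lpr against Ctr, -0.15 to 0.22 for Calb1 and -0.30 to 0.15 for Pvalb in DNase against Lpr, and -0.23 to 0.0091 for Umod in DNase against Ctr. Genes past the test in DNase against Ctr numbered 2107 up and 1386 down, 1289 and 600 with all 11 libraries, 1236 and 633 with the block, and 1800 and 2480 with the gene length correction. Those in Lpr against Ctr numbered 1169 and 470, 1743 and 812 with all 11 libraries, 1674 and 841 with DESeq2, 1231 and 904 with the gene length correction, and 641 and 211 without Ctr 1. The cause of these changes was not tested.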

Other observations

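Within groups, the members varied together to different degrees. The correlations here are Pearson's r of log2 CPM after each group's mean was taken away, over the 11 kidneys, which share library scaling and the length trend of Lpr 3, and they are a description. Egf went with Kcnj1 (r = 0.96), with Slc12a3 (0.937) and with Slc12a1 (0.896), and these stayed high without Lpr 3 (0.892, 0.82 and 0.894). Others were low with that kidney included and high without it. Umod and Egf had r = 0.306 over 11 kidneys and 0.842 without Lpr 3, Umod and Kcnj10 had 0.0153 and 0.828, and Pvalb and Trpm6 had 0.168 and 0.938. Some pairs went the other way, such as Kcnj10 and Trpm6 with 0.813 and 0.466.

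The 3 other genes with the highest r were sought among 11490 genes with a mean of at least 5 CPM, a number that includes the members. They were Gpx6, Cyp39a1 and Rhbg for Umod (0.949, 0.934 and 0.921), Fads6, Mcf2l and Zfp316 for Egf (0.989, 0.984 and 0.978) and Mfsd4a, Cacnb4 and Plscr4 for Slc12a1 (0.976, 0.957 and 0.956). For Slc12a3 they were Evi5l, Tmem72 and Pkd2 (0.983, 0.978 and 0.974), for Kcnj1 Lrrc66, Elfn1 and Fads6 (0.988, 0.981 and 0.971), and for Kcnj10 Podxl, Fzd4 and Ahdc1 (0.995, 0.987 and 0.987). For Calb1 they were Zfp974, Avpr1a and Bcar3 (0.969, 0.909 and 0.903), for Pvalb Tarbp2, Hmx2 and Ippk (0.955, 0.952 and 0.947), and for Trpm6 Abcb9, Sall3 and Amigo1 (0.978, 0.972 and 0.969). Fads6 was listed for both Egf and Kcnj1. The correlations with these other genes were not recomputed without Lpr 3.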
